A study of Mus musculus with 6 samples.

Results

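The 9 genes described here, Foxd1, Tbx18, Wt1, Meis1, Meis2, Tcf21, Twist1, Twist2 and Prrx1, encode transcription factors of the kidney stroma and of mesenchyme, and were taken as a named set with every probe set the platform annotation pairs with them. They were read by 21 of the 45037 probe sets on the array and make up 9 of the 18193 genes tested. Foxd1, Wt1, Twist1 and Twist2 had 1 probe set each, Tbx18 and Tcf21 had 2, Meis1 had 3, Meis2 had 4 and Prrx1 had 6. All samples came from adult mice of the C57BL6 strain that carry a Ren1c YFP reporter. Juxtaglomerular (JG) cells, the renin-secreting cells of the afferent arteriole, were sorted by YFP (3 samples). Renal mesenchymal stromal cells (MSC) were isolated through their surface CD44 and expanded to confluence in medium with serum (3 samples), so that cell type, sort and culture differ together between the groups and cannot be told apart. The labels repeat the MSC growth medium for the JG samples and do not state whether each sample had an animal or culture of its own, so p-values here measure only the spread between these samples, which may be technical.

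In the embryonic kidney, stromal progenitors marked by the forkhead factor Foxd1 give rise to interstitial fibroblasts, pericytes, mesangial cells, vascular smooth muscle and renin cells. The T-box factor Tbx18 marks the mesenchyme around the ureter and part of the renal stroma, and the zinc finger factor Wt1 is needed for nephron formation and is kept in adult podocytes. Meis1 and Meis2 are homeodomain proteins of the TALE class that bind DNA together with Pbx and Hox proteins. Tcf21, Twist1 and Twist2 are basic helix-loop-helix (bHLH) proteins that bind E-boxes as dimers with E-proteins such as Tcf3 and Tcf12, and Prrx1 is a paired-related homeodomain factor of limb and fibroblast mesenchyme.

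The JG samples held transcripts of other kidney cells. Over all genes 7.7% were called toward JG and 7.63% toward MSC. Calls toward JG took in all 12 markers of the proximal tubule (summed intensity 32377 to 42044 in JG, 401 to 693 in MSC). They also took in 11 of 12 loop and distal epithelium markers and 6 of 12 endothelial markers (summed endothelial intensity 172 to 290 in MSC and 1286 to 1990 in JG). Of 12 leukocyte markers 4 were called toward JG and 8 were not called (summed intensity 159 to 673 in MSC and 1745 to 4190 in JG). Of 13 juxtaglomerular and mesangial markers 6 were called toward JG, including the regulator of G protein signalling gene Rgs5 (3.79) and the smooth muscle myosin gene Myh11 (2.64). The other 4 calls in that list were toward MSC, and they were the smooth muscle calponin gene Cnn1 (-4.06), the receptor genes Pdgfrb (-2.92) and Ptger4 (-2.25) and the connexin gene Gjc1 (-2.05). Ren1 was not analysed here. The gene of the sorting antigen, Cd44, was called higher in MSC (-2.68). In such bulk samples fewer cells of a type and less RNA per cell cannot be told apart, and the part of these other cells in the results below was not tested. The arrays correlated less within the JG group (mean r of 0.860 across genes) than within the MSC group (0.973), with JG samples 1 and 2 at 0.807.

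Intensities below are the authors' linear probe set values, given as mean ± SD with n = 3 per group. Each difference is the JG value less the MSC value ± SE, in log2 units of intensity plus 16, from limma, and "called" means a Benjamini-Hochberg adjusted p under 0.05. Each gene was represented by the probe set with the highest mean log2 value, with p adjusted over 18193 genes, and the other probe sets were tested over all 45037. For genes with values near or below 16 the size of a difference depends on the added constant.

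Of the 9 genes 5 were called higher in MSC, namely Wt1, Foxd1, Twist2, Meis2 and Tbx18, where 15.3% of all genes were called in either direction and 7.63% in that one. None was called higher in JG by limma, where the background was 7.7%, and none had an unadjusted p under 0.05 in that direction. The median difference of the 9 genes was -2.24, beside 0.07 over all genes. The MSC and JG samples did not overlap for 6 of the 9, the called genes and Prrx1, all with MSC above JG, and this held for 18.5% of all genes, while JG lay wholly above MSC for 20.2% of all genes and for none of the 9. At the level of probe sets, 8 of 21 were called higher in MSC (background 5.57%) and 13 of 21 had every MSC sample above every JG sample (background 18.1%). No probe set of the 9 genes was called higher in JG (background 4.23%), none had an unadjusted p under 0.05 in that direction, and 1 was called without JG sample 2, a Tcf21 probe set. Leaving out MSC 1, MSC 2 or MSC 3 in turn gave 4, 3 and 3 genes and 5, 4 and 4 probe sets, and 12 probe sets were called when JG 1 was left out. The share of all genes called higher in MSC moved too. It was 2.86%, 2.38% and 2.26% without MSC 1, MSC 2 or MSC 3, and 14.5% without JG 1. In the fit by gene Foxd1, Wt1 and Meis2 were called with any 1 of the 6 samples left out. In the fit by probe set the Meis2 representative was not called without MSC 2 (adjusted p = 0.0616) or MSC 3 (0.0622).

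**Figure D1:**
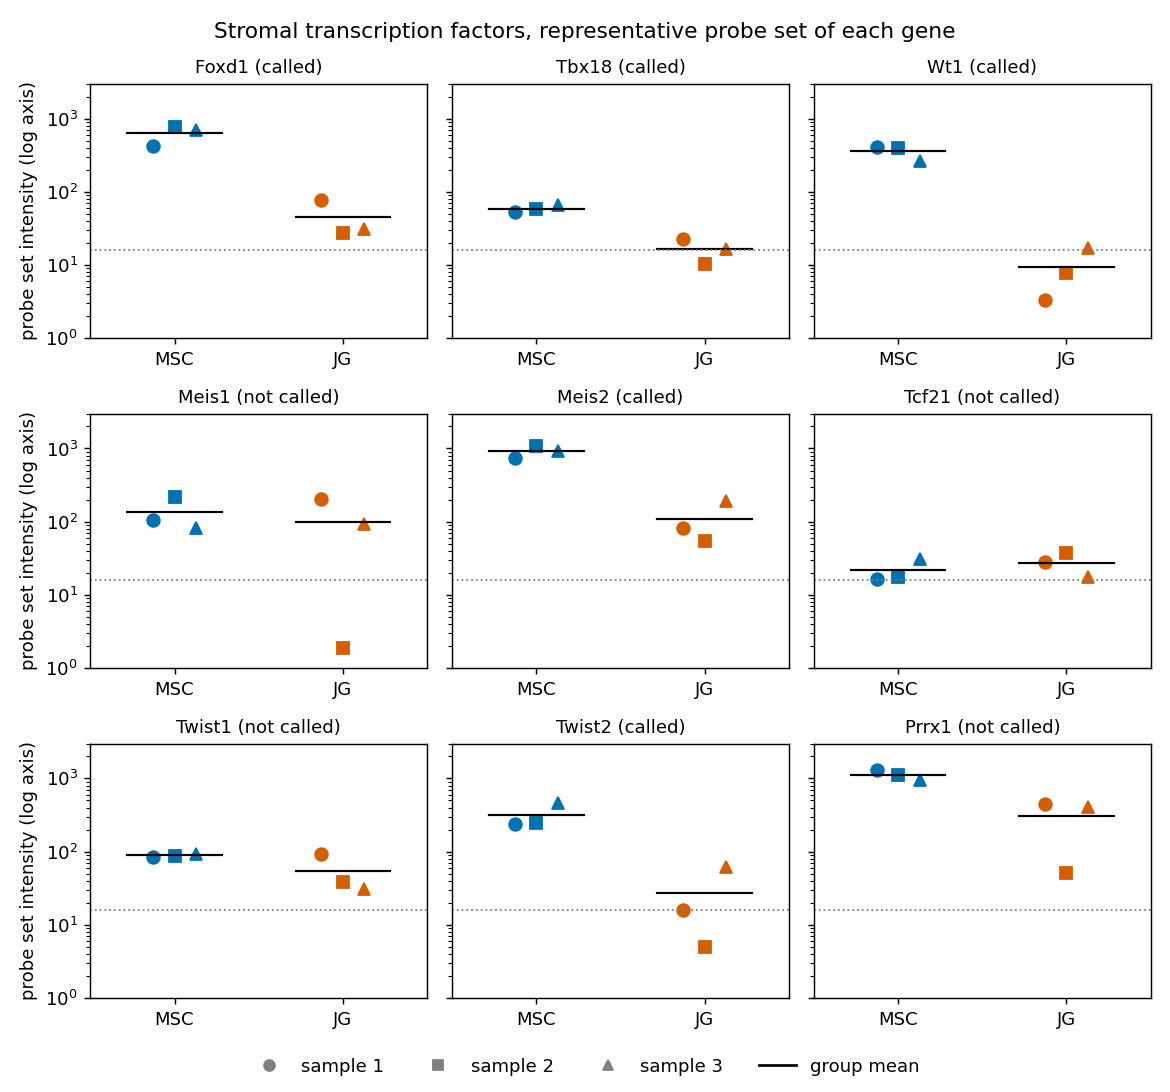
Intensity of the representative probe set of each of the 9 genes in every sample (log axis; blue, MSC; orange, JG; symbols, sample number; black line, group mean; dotted line, the added constant of 16). The MSC samples lie above all JG samples for Foxd1, Tbx18, Wt1, Meis2, Twist2 and Prrx1, and the groups overlap for Meis1, Tcf21 and Twist1.

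RefSeq promoter windows (GRCm38.p6, from 250 bases before to 50 bases after the start site) were at hand for 8 of the 9 genes, all but Wt1. They were searched on both strands for short core motifs of the proteins named above, as a description only. The motifs were picked after the differences were seen, and binding to them was not tested. TGACAG, the core bound by Meis proteins, was in 3 of the 8 windows and in 19.2% of all 32851 windows. The 3 genes were Foxd1, Tbx18 and Twist2, which were all called higher in MSC together with Meis2, and their sequences are shown for that reason, 5′ to 3′ from 250 bases before to 30 bases after the start, with the core in capitals.
Foxd1, chr13:98353995-98354274, plus strand: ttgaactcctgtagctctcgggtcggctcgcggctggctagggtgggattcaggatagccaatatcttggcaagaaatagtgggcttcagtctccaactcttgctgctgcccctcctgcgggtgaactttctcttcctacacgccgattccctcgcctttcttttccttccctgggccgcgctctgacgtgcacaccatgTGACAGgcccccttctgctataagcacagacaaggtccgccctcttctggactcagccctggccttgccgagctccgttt
Tbx18, chr9:87731231-87731510, minus strand: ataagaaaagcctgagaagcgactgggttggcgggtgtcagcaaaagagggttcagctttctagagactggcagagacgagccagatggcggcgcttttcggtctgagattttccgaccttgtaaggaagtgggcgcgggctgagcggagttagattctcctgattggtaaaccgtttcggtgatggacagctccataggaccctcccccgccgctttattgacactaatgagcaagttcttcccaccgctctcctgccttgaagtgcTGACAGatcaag
Twist2, chr1:91801211-91801490, plus strand: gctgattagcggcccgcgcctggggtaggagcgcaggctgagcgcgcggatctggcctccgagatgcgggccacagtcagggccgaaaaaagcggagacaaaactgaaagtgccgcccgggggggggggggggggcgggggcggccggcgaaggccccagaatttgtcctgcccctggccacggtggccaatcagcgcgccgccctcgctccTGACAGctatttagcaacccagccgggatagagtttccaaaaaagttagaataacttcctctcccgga
The core began at -50 in Foxd1 and at -38 in Twist2, counted from the start site, and at position 19 after it in Tbx18. E-boxes (CANNTG) were in 3 of the 8 windows, those of Foxd1, Tbx18 and Meis1, and in 72.3% of all windows, and the E-box of Foxd1 overlapped its Meis core. TAATTA, a homeodomain core, was in the Prrx1 window alone of the 8 (5.29% of all windows), and TATAAA in those of Meis2 and Twist1 (13.6%). The forkhead core TGTTTAC (3.65% of all windows) and the T-box core AGGTGTGA (1.28%) were in none of the 8.

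Foxd1, the factor that marks the stromal progenitors from which renin cells descend, was bright in MSC and dim in JG. Its intensity was 416, 765 and 699 in MSC samples 1 to 3 and 76.8, 27.5 and 30.7 in JG samples 1 to 3. The brightest JG sample thus lay far below the dimmest MSC sample, and no sample fell below 16. The means were 627 ± 185 in MSC and 45.0 ± 27.6 in JG (-3.44 ± 0.40, adjusted p = 0.00308).

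Tbx18, the factor of ureteral and stromal mesenchyme, was dim throughout, and its 2 probe sets disagreed. The representative probe set stood at 53.0, 58.7 and 65.0 in MSC and 23.0, 10.2 and 16.4 in JG. The groups did not overlap, and the means of 58.9 ± 5.98 and 16.5 ± 6.39 differed by -1.22 ± 0.25 (adjusted p = 0.0225). The difference was -1.84 with an added constant of 1, -0.61 with 64 and -0.78 with both probe sets averaged. The call was lost when any single MSC array (adjusted p up to 0.104) or JG sample 3 (0.0587) was left out, and with the sample number as a replicate block (0.0802). The other probe set, at 49.6, 26.97 and 32.8 in MSC and 23.3, 36.7 and 16.9 in JG, overlapped between the groups and was not called (-0.34 ± 0.29, adjusted p = 0.498).

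Wt1, known in the adult kidney as a podocyte factor, had the lowest adjusted p of the 9 genes. Its only probe set was at 407, 398 and 259 in MSC and at 3.36, 7.75 and 16.8 in JG. All MSC samples were bright, and JG samples 1 and 2 lay below 16. The means were 355 ± 82.6 and 9.30 ± 6.85 (-3.88 ± 0.31, adjusted p = 0.000716). The difference was -2.50 with a constant of 64 and -5.31 with a constant of 1, and the gene was called with both. This probe set carries the suffix s, which marks probe sets that can match several transcripts, so the gene drops out when such probe sets are left out.

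Podocyte markers went both ways. Of 11 measured markers Npr3 (-4.40) and Synpo (-2.35) were called toward MSC and none toward JG by limma, where 3 had an unadjusted p under 0.05. Npr3, a natriuretic peptide clearance receptor, was at 3529, 2708 and 3345 in MSC and at 7.11, 414 and 332 in JG. Synpo, the actin-binding protein synaptopodin, was at 4101, 3690 and 2145 in MSC and at 270, 726 and 1150 in JG. Cd2ap, an adaptor of the slit diaphragm, was not called (0.23). Nphs1, which encodes nephrin and is a defining podocyte gene, was at 3.00 to 4.33 in MSC and at 10.9, 49.5 and 8.37 in JG (0.84, adjusted p = 0.218). The summed intensity of the list was 7816 to 11177 in MSC and 4377 to 7459 in JG. That sum includes the bright Npr3 and Synpo values given above. The median difference of the 11 markers was 0.50, beside 0.07 over all genes. Podxl (1.59), Clic5 (1.83) and Plce1 (2.08) were the 3 with an unadjusted p under 0.05 toward JG, named after their values were seen. The part of podocyte transcripts in the Wt1 values was not tested.

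The Meis paralogs had unlike values. Meis2 was at 751, 1071 and 924 in MSC and at 81.3, 54.3 and 194 in JG in its representative probe set, with every MSC sample above every JG sample. The means were 916 ± 160 and 110 ± 73.9 (-3.03 ± 0.44, adjusted p = 0.00681). A further probe set of similar brightness, at 1269, 861 and 731 in MSC and 106, 25.3 and 47.5 in JG, was called in the same direction (-3.79 ± 0.45, adjusted p = 0.00596). So was a dim one that lay at 56.4, 70.0 and 47.8 in MSC and below 16 in all JG samples (-1.69 ± 0.22, adjusted p = 0.00814). The last followed no group: it was at 228 in MSC sample 1 and 292 in JG sample 2, and between 5.61 and 42.3 in the others (-0.27 ± 1.09, adjusted p = 0.897). The representative carries the suffix s and the dim called probe set the suffix x. With such probe sets left out, Meis2 was called higher in MSC through the further bright one (-3.79, adjusted p = 0.00360).

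Meis1 overlapped between the groups in all 3 of its probe sets. The representative was at 105, 215 and 82.5 in MSC and at 206, 1.88 and 93.0 in JG, so that JG samples 1 and 3 lay within the MSC range and JG sample 2 far below all others. The means were 134 ± 71.0 and 100.4 ± 102 (-0.89 ± 0.92, adjusted p = 0.550), and without JG sample 2 the difference was 0.15 (adjusted p = 0.877). The other probe sets gave -0.55 ± 0.62 and 0.30 ± 0.37 (adjusted p = 0.615 and 0.651). The difference of Meis2 less that of Meis1 was -2.14 on the log2 scale. In an exact two-sided permutation test of the per-sample difference between the genes, p was 0.10, the smallest that 3 against 3 allows, so the design cannot reach 0.05. It was -1.26 without JG sample 1, and with a pseudocount of 1 the exact p was 0.50.

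Among the bHLH genes, Twist2 was called and Twist1 and Tcf21 were not. Twist2, a regulator of dermal and other mesenchyme, was at 240, 250 and 468 in MSC and at 15.7, 4.94 and 61.1 in JG. The groups did not overlap, and JG sample 3 was the brightest of its group. The means were 319 ± 129 and 27.2 ± 29.8 (-3.11 ± 0.54, adjusted p = 0.0132), and the difference was -2.07 with an added constant of 64. The adjusted p was 0.0533 without MSC sample 2 and 0.0607 without MSC sample 3.

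Twist1, a regulator of mesoderm and of epithelial-mesenchymal transition, was nearly level across MSC and JG sample 1. It stood at 85.6, 87.6 and 92.5 in MSC and at 93.4, 38.3 and 30.6 in JG. JG sample 1 was thus above every MSC sample and the other JG samples below them. The means were 88.6 ± 3.54 and 54.1 ± 34.2 (-0.68 ± 0.36, adjusted p = 0.249), and without JG sample 1 the gene was called higher in MSC (-1.05 ± 0.22, adjusted p = 0.0203). Without that sample 14.5% of all genes were called higher in MSC, beside 7.63% with all samples. The difference of Twist2 less that of Twist1 was -2.43, with an exact two-sided permutation p of 0.10, again the smallest possible. Both paralog tests together gave adjusted values of 0.10.

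Tcf21, a factor of podocytes and interstitial mesenchyme, was the member with the highest JG values relative to MSC, in 1 of its probe sets. That probe set was at 2.01, 7.99 and 1.00 in MSC and at 175, 4.85 and 78.6 in JG. JG samples 1 and 3 were bright and JG sample 2 lay within the MSC range. It was not called (1.89 ± 0.79, adjusted p = 0.188), and without JG sample 2 it was called higher in JG (2.79 ± 0.38, adjusted p = 0.0170). The probe set with the higher mean log2 value was at 16.3, 17.8 and 30.6 in MSC and 28.4, 36.99 and 17.4 in JG, close to the added constant (0.21 ± 0.29, adjusted p = 0.656).

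**Figure D2:**
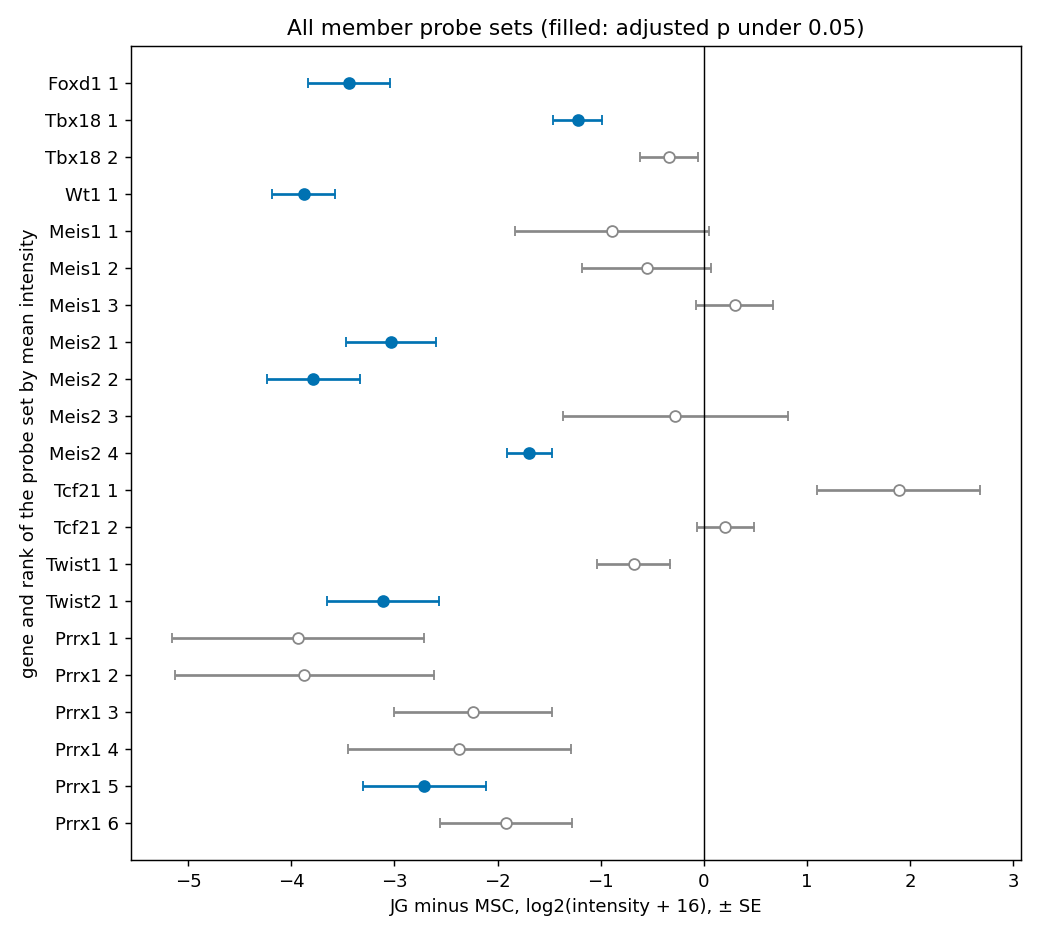
Difference JG minus MSC in log2 of the intensity plus 16, ± SE from limma, for all 21 probe sets of the 9 genes, numbered within each gene from the brightest mean intensity down (filled, adjusted p under 0.05 over all probe sets). The 8 called probe sets, of Foxd1, Tbx18, Wt1, Meis2, Twist2 and Prrx1, all lie left of 0, and the widest error bars are those of Prrx1, Meis1 and 1 Meis2 probe set.

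Prrx1, the paired-related mesenchymal factor, was bright in MSC and varied widely among the JG samples. Its representative probe set was at 1285, 1108 and 943 in MSC and at 449, 50.7 and 412 in JG. No JG sample reached the MSC range, but JG sample 2 lay far below the other JG samples. The means were 1112 ± 171 and 304 ± 220, and the difference was not called (-2.24 ± 0.76, adjusted p = 0.0986). Without JG sample 2 it was smaller but called (-1.33 ± 0.24, adjusted p = 0.0217). Array weights, with all 6 samples kept, called it too (-1.67 ± 0.45, adjusted p = 0.0286), beside 16.3% of all genes called higher in MSC.

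The spread within JG was wider in the 2 probe sets of highest mean intensity. The first was at 1762, 1076 and 1686 in MSC and at 620, 2.10 and 63.9 in JG (-3.94 ± 1.22, adjusted p = 0.101). The second was at 1155, 929 and 1516 in MSC and at 636, 3.87 and 25.5 in JG (-3.88 ± 1.25, adjusted p = 0.112). In both, JG sample 1 was the brightest of its group by far, JG sample 3 was dim and JG sample 2 lay below 16. Without JG sample 1 both were called (adjusted p = 0.00766 and 0.00230, over all probe sets). In the fit by gene, a different unit, 14.5% of all genes were then called higher in MSC. Of the 6 Prrx1 probe sets 1 was called, a dimmer one at 300.3, 160 and 240 in MSC and 75.4, 4.56 and 11.1 in JG (-2.71 ± 0.60, adjusted p = 0.0419). That call was lost without any 1 sample other than JG sample 1 (adjusted p up to 0.154) and with quantile normalization (0.0531) or the replicate block (0.0511). The remaining Prrx1 probe sets differed by -2.37 ± 1.08 and -1.92 ± 0.64 (adjusted p = 0.222 and 0.120).

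**Figure D3:**
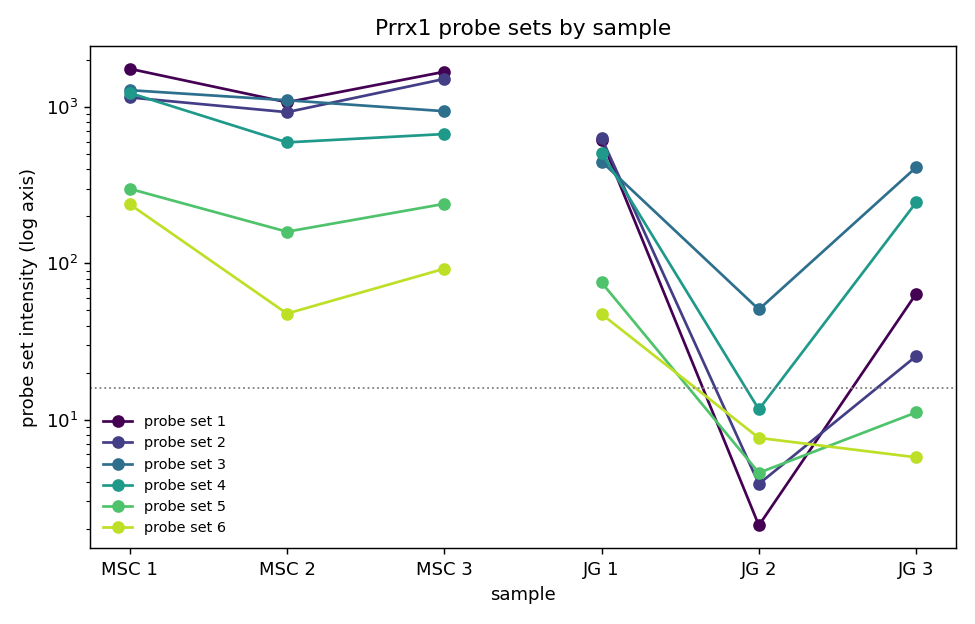
Intensity of the 6 Prrx1 probe sets in each sample (log axis; lines join the values of 1 probe set within a group and imply no order; dotted line, 16). All 6 are brightest in JG sample 1 among the JG samples, and 5 of 6 are dimmest in JG sample 2.

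Outside Prrx1, the order of the JG samples was less even. Of the 15 probe sets of the other members JG sample 1 was highest of its group in 7 (46.7%, beside 34.1% of all probe sets on the array) and JG sample 2 lowest in 8 (53.3%, beside 37.4% of all). These shares were not tested, and probe sets of 1 gene share their target. Beside this, the summed intensity of 13 renal stromal cell markers was 38872 in JG sample 1, 15187 in JG sample 2 and 19485 in JG sample 3, and 34560 to 42338 in MSC. In that list Cd44 and Vim were called higher in MSC and Thy1 and Nt5e in JG, and no marker was below 16 on all arrays. Of the 13 markers JG sample 1 was highest of its group in 11 and JG sample 2 lowest in 9, whereas Nt5e and Eng were lowest in JG sample 1 and highest in JG sample 2. The part of these markers in the order of the JG samples was not tested.

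Partners of the members were counted in the same fit. Over all genes it called 7.63% toward MSC and 7.7% toward JG, the shares to set beside each list below. Of 13 measured TALE and Hox partners 5 were called toward MSC and none toward JG by limma (none at an unadjusted p under 0.05), with a list median of -1.29 beside 0.07 over all genes. Pbx3, a Pbx partner of Meis proteins, was at 416, 219 and 261 in MSC and 6.90, 11.2 and 62.3 in JG (-3.06 ± 0.52, adjusted p = 0.0130). Hoxc10, a Hox gene of the posterior body, was at 1578, 1671 and 1899 in MSC and 309, 93.7 and 260 in JG (-3.01, adjusted p = 0.00722). Pknox2, a TALE homeodomain gene, was lower in JG (-2.97, adjusted p = 0.00189), as was Hoxa11, which acts in metanephric induction (-2.11, adjusted p = 0.0121). The fifth, Meis3, was named after its value was seen (-1.14, adjusted p = 0.0393), and its adjusted p ran from 0.00433 to 0.143 over the alternatives. Leaving out MSC 1, MSC 2 or MSC 3 in turn gave 2, 3 and 2 calls, and the highest count over the alternatives was 7. With an added constant of 64 Pbx3 was at -2.01 and Hoxa11 at -1.16. Hoxc10 and Pknox2 were called in all 6 fits that left out a sample.

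Of 14 bHLH partners and Id inhibitors 4 were called higher in MSC and 2 higher in JG (median 0.16), beside 7.63% and 7.7% of all genes. Id3, which blocks DNA binding by bHLH dimers, was at 3207, 4151 and 3162 in MSC and 864, 144 and 326 in JG (-3.26, adjusted p = 0.0170). The E-protein genes Tcf12 (-1.95, adjusted p = 0.0469) and Tcf3 (-1.69, adjusted p = 0.0133) were also higher in MSC, whereas Hand1, a bHLH gene of heart and trophoblast, was higher in JG (1.47, adjusted p = 0.0246). Hand1 was dim, at 5.92 to 9.74 in MSC and 35.4 to 79.2 in JG, and its difference was 0.67 (adjusted p = 0.0564) with an added constant of 64. With the probe sets of each gene averaged, Tcf3 was at -0.26 (adjusted p = 0.543), Tcf12 at -1.01 (0.0843) and Hand1 at 0.69 (0.0682), and 1 gene of the list was called toward MSC and 1 toward JG. The replicate block gave 1 call toward MSC and 0 toward JG. Over all 18 alternatives calls toward MSC ranged from 0 to 4 and toward JG from 0 to 2. Calls toward MSC numbered 1, 0 and 0 when MSC 1, MSC 2 or MSC 3 was left out and 3, 2 and 1 for JG 1, JG 2 or JG 3, and calls toward JG numbered 0 when a single MSC array or JG 3 was missing.

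Of 23 forkhead, T-box and paired-related relatives 7 were called toward MSC and none toward JG by limma (3 at an unadjusted p under 0.05), with a median of 0.12. The shares over all genes were 7.63% and 7.7%. Foxc2, a forkhead gene of mesoderm and podocytes, was at 995, 1481 and 1325 in MSC and 80.5, 28.5 and 92.4 in JG (-4.03, adjusted p = 0.00156). Its paralog Foxc1 (-3.08, adjusted p = 0.0138), the T-box gene Tbx15 (-2.52, adjusted p = 0.0285) and Foxd2, a close relative of Foxd1 (-2.46, adjusted p = 0.00720), were also higher in MSC. The 7 became 4 without MSC sample 2 and 3 without MSC sample 3, and over all 18 alternatives the count ran from 3 to 8. Toward JG 8 of the 18 alternatives called at least 1 relative, with 4 under array weights. With those weights 3208 of all 18193 genes were called toward JG, beside 1401 without them. The Foxd2 difference was -1.62 with an added constant of 64 and -1.16 with its probe sets averaged. Foxc2 and Foxd2 were called in all 6 fits that left out a sample, Foxc1 (adjusted p up to 0.0652) and Tbx15 (up to 0.102) did not.

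Other regulators of renal stroma and mesenchyme had a median of 0.07, equal to that of all genes. Of these 27 genes 5 were called higher in MSC and 2 in JG, beside 7.63% and 7.7% of all genes. Snai2, a repressor of epithelial genes, was at 2084, 2263 and 2920 in MSC and 52.4, 10.4 and 32.5 in JG (-5.76, adjusted p = 0.000353). Aldh1a2, which makes retinoic acid, was at 344, 337 and 134 in MSC and 10.4, 90.6 and 5.73 in JG (-2.76, adjusted p = 0.0435). In the other direction, Ebf2, a helix-loop-helix factor of mesenchyme and fat, was below 16 in all MSC samples and at 563, 44.2 and 217 in JG (3.16, adjusted p = 0.0428), and Mef2c, a muscle and vascular factor, rose by 2.38 (adjusted p = 0.0131). Calls toward MSC fell to 2 when a single MSC array or JG 3 was left out. Calls toward JG numbered 1, 0 and 0 when MSC 1, MSC 2 or MSC 3 was left out, and 3, 3 and 1 for JG 1, JG 2 or JG 3. Over all 18 alternatives the counts ran from 2 to 6 toward MSC and from 0 to 4 toward JG. With an added constant of 64 neither Aldh1a2 (-1.78, adjusted p = 0.0577) nor Ebf2 (1.92, adjusted p = 0.116) was called, and with probe sets averaged Mef2c was not (1.29, adjusted p = 0.0511). Snai2 was called in all 6 fits that left out a sample.

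In limma none of 6 cofactors of Wt1 was called in either direction, a count that most alternatives raised, and 3 had an unadjusted p under 0.05 toward MSC and none toward JG. Their median was -1.20, and Pawr, an apoptosis-linked partner of Wt1, had the largest difference (-2.56, adjusted p = 0.0610), as named after its value was seen. Of 18 alternatives 11 called 1 or more cofactors toward MSC, up to 3 with array weights and with the robust fit, and none called 1 toward JG. Array weights called 16.3% of all genes toward MSC and the robust fit 7.2%.

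Among 19 measured genes listed as proposed targets of the members, 5 were called higher in MSC and 1 in JG, with a median of 0.30. The shares over all genes were 7.63% and 7.7%. At an unadjusted p under 0.05 the counts in limma were 5 toward MSC and 4 toward JG. MSC lay wholly above JG for 5 targets and JG wholly above MSC for 5, beside 18.5% and 20.2% of all genes. Tnc, the tenascin C gene linked to Prrx1, was at 3268, 2057 and 2736 in MSC and below 16 in all JG samples (-6.73 ± 0.26, adjusted p = 6.35e-05). The mesenchymal cadherin genes Cdh11 (-6.34, adjusted p = 0.000195) and Cdh2 (-4.36, adjusted p = 0.000303) were likewise higher in MSC. Cdh1, the epithelial cadherin gene repressed by Snai and Twist factors, was below 16 in all MSC samples and at 812, 303 and 487 in JG (4.57 ± 0.38, adjusted p = 0.000865), in samples that also held the epithelial markers given above. Leaving out a single MSC array gave 3 calls toward MSC, where 2.26% to 2.86% of all genes were called in that direction. Leaving out JG 1 gave 6 toward JG, where 2551 of all 18193 genes were called toward JG. Over all 18 alternatives the counts ran from 3 to 6 toward MSC and from 1 to 6 toward JG. The Tnc difference was -4.36 with its probe sets averaged, and that of Cdh1 was 3.01 with an added constant of 64. These 4 targets were called in all 6 fits that left out a sample.

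**Figure D4:**
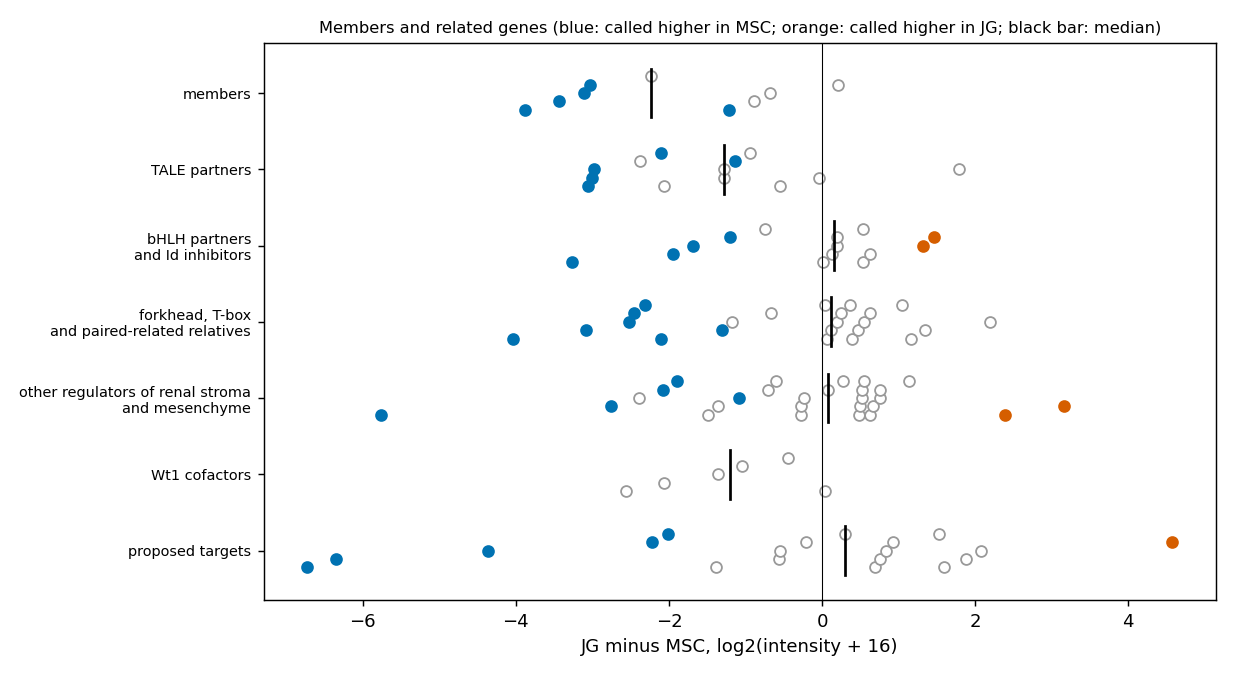
Difference JG minus MSC in log2 of the intensity plus 16 for the 9 members and for each list of related genes (1 point per gene; blue, called higher in MSC; orange, called higher in JG; open grey, not called; black bar, list median). The medians of the members (-2.24), of the TALE partners (-1.29) and of the Wt1 cofactors (-1.20) lie left of 0, and those of the other lists lie between 0.07 and 0.30.

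The genes most like each member over the 6 samples were found by Pearson's r of the log2 values, among genes brighter than the median. These values follow the separation of the groups for the called members and are given as a description, with n = 6 arrays and no test. For Foxd1 they were Ak1, Crtap and Sdc1 (r from 0.996 to 0.997), for Tbx18 Zfp827, Med15 and Brix1 (all 0.999), and for Wt1 Ltbp2, Ccn4 and Actn1 (0.994 to 0.995). For Meis2 they were B4galnt1, Poglut2 and Pdlim7 (0.996 to 0.998) and for Twist2 Gla, Mtss2 and Mphosph6 (0.997 to 0.998). All of these genes were called higher in MSC. For Prrx1 they were Syncrip, Irf2bp2 and Sugt1 (all 0.996), for Twist1 Virma, Tnfaip3 and Txndc15 (0.991 to 0.993), for Meis1 Xbp1, Trps1 and Gps2 (0.980 to 0.993), and for Tcf21 Eci2, Elp4 and Lrrc40 (0.954 to 0.982), none of which was called.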

How the data were processed

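Total RNA of 3 MSC and 3 JG samples was extracted with a Picopure kit and hybridised as biotin-labelled cRNA, per the labels, to an Affymetrix mouse platform. The values the authors deposited are linear intensities, 1 for each probe set on each array. Summarisation, background correction and scaling are not given in the sources used here. The medians of the arrays ran from 27.3 to 36.5. The platform annotation gave a single gene for 34945 of 45037 probe sets. After adding 16 and taking log2, values entered limma 3.58.1 (R 4.3.3; lmFit, eBayes) without renormalization, filter or covariate. Each of 18193 genes was represented by the probe set with the highest mean log2 value, a reading of "brightest" settled after the data were seen because it gave the number of calls of an earlier analysis (2790). The mean linear intensity, an alternative added after seeing the data, gave 2803 calls and the same 5 members. The fit was tested on simulated data. Figures were drawn with matplotlib 3.10.9.

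The members, the lists of related genes and the markers were chosen with earlier results of these data known, and the motifs after the differences were seen. All probe sets of the 9 members are reported. Of each related list up to 4 called genes with the largest difference are named, of the podocyte list the 3 with the highest mean and Nphs1, and for each member the 3 genes with the highest r. Any other marker given by name was picked with its values in view. The number of arrays limits the precision. The other alternatives were median centring, quantile normalization, pseudocounts of 1 and 64, filters at the 25th percentile and the median, array weights, a robust fit with an intensity trend, a block for sample number, leaving out single samples, averaging probe sets within genes, and dropping those with suffix s or x.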

Additional observations from a re-analysis of the deposited data

How the results depend on the processing

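Over 18 alternatives for each gene (17 for Tbx18, Wt1 and Tcf21, which 1 alternative drops), 146 member values kept their direction and side of the threshold, 7 lost a call, 4 gained one and 2 changed sign. The count of 5 members higher in MSC ranged from 3 to 6 with 1 sample left out and was at most 7 in all alternatives, and the count higher in JG was 0 in each. The count of 31 related genes called ranged from 11 to 40 with 1 sample left out and was 47 with array weights. The fits with 1 sample left out have fewer residual degrees of freedom, whereas array weights keep all 6 arrays. Over all genes 2790 were called, 6177 with array weights, 1613 with the replicate block, 1139 to 1240 when a single MSC array was left out and 5194 when JG sample 1 was. The 8 member probe sets higher in MSC ranged from 4 to 12 with 1 sample left out, and the 0 higher in JG from 0 to 1, with 1 under array weights.

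With the sample number as a replicate block the counts were 4 members, 18 related genes and 5 member probe sets. Deviations of same-numbered samples from their group means correlated at -0.197, -0.00927 and -0.00753 across genes, so the numbers gave no sign of pairing. Signs changed only for values that were not called. With 1 sample left out, the Meis1 difference ran from -1.67 to 0.15, those of the other Meis1 probe sets from -0.90 to 0.12 and from -0.014 to 0.64, and that of the variable Meis2 probe set from -1.31 to 0.60, with 0.46 when MSC sample 1 was left out. The Tcf21 difference with array weights was -0.034 in the fit by gene and -0.048 in that by probe set. The causes were not tested.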
